A study of Mus musculus with 8 samples.

Results

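Myc and the genes of the MAX network were followed in RAW264.7 cells given ATRA (all-trans retinoic acid), the cytokine IL-13 or both agents. The 9 genes were Myc, Mycn, Max, Mxd1, Mxd3, Mxd4, Mxi1, Mnt and Mlx, out of 15454 genes with a usable signal. They were matched by gene symbol to 17 of the 41174 probes on the array, and 15 of the 17 probes passed the filter on dim signals, which asked for a signal well above background on the 12 h and the 24 h array of some treatment. All 9 genes had at least 1 such probe. The genes were chosen by their measured signals across these same treatments, so their levels and differences are a description and carry no test.

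RAW264.7 is a mouse macrophage-like line that was transformed with Abelson leukaemia virus, which limits it as a model of normal macrophages. Total RNA from 8 cultures was hybridized to one-colour Agilent arrays. The groups were untreated (unpolarized) cells, ATRA, IL-13, and IL-13 with ATRA, sampled once at 12 h and once at 24 h, and all were grown in the same serum-containing medium. The labels give no doses and do not say that the cultures were independent, so p-values measure the spread between these arrays only. In the fit that spread is how far treatment differences disagree between 12 h and 24 h, so a change over time adds to it. All 12 h arrays shared a slide and all 24 h arrays shared another, so a time difference cannot be told apart from a slide difference, and treatments were compared within slides. The arrays had 75th percentile signals of 448 to 739, and 54.1% to 61.4% of the probes were well above background. Of 10 macrophage markers, including Csf1r, Cd68 and Adgre1, 10 were well above background on all 8 arrays. Of the markers of T cells, B cells, fibroblasts, epithelium and endothelium, Cd3e and Krt14 were well above background on all 8 arrays, while Cd3g, Pax5, Col1a1, Col3a1, Dcn, Epcam, Cdh1 and Cdh5 were so on 0.

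MYC is a transcription factor that binds DNA only as a dimer with MAX, at the E-box motif CACGTG and its variants, and drives ribosome production, metabolism and entry into the cell cycle. MYCN is its close relative, usually restricted to the embryo, the nervous system and some tumours. The MXD proteins, MXI1 and MNT compete with MYC for MAX and recruit repressors to the same sites. MLX is a MAX-like protein that pairs either with some of these proteins or with the glucose-sensing factors MLXIP and MLXIPL. In macrophages, MYC is known as a factor induced by IL-4 during alternative activation, and retinoic acid is known to lower MYC in myeloid leukaemia cells that it drives to differentiate.

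Myc was measured by 3 probes and Mycn by 2, each 60 bases long. Their first 30 bases, as given in the array files, show that the 5 probes read different stretches of the transcripts; positions are on mouse build mm9.
Myc probe A_51_P102096, chr15:61821516-61821576, plus strand: gttccttctgacagaactgatgcgctggaa
Myc probe A_52_P108346, chr15:61821417-61821476, plus strand: aacagttgaaacacaaactcgaacagcttc
Myc probe A_52_P278549, chr15:61820925-61820984, plus strand: aaattgatgtggtgtctgtggagaagaggc
Mycn probe A_52_P536494, chr12:12943193-12943252, minus strand: tgtactaattcctacacggcctgtatactt
Mycn probe A_51_P497332, chr12:12944312-12944371, minus strand: tggtcaccgtagagaagagacgttcctcct
The Myc probes began 492 and 591 bases after the most upstream of them, both on the transcript and on the genome. The Mycn probes lay 1119 bases apart by both measures. Equal distances place the probes of each gene in a stretch of exon with no intron between them.

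Myc was highest with IL-13 and lowest with ATRA. Probe A_51_P102096, printed in 10 spots on every array, represents Myc in the following. Its log2 signal, scaled to the 75th percentile of each array, was 8.64 at 12 h and 7.86 at 24 h in untreated cells. It was 9.96 and 9.15 with IL-13, 5.62 and 4.98 with ATRA, and 8.39 and 7.06 with both agents. Both IL-13 arrays were above every other array, and both ATRA arrays were below every other array. Cells given both agents lay between, and their values overlapped those of untreated cells, with a mean log2 difference from untreated cells of -0.52 (-0.25 at 12 h and -0.79 at 24 h). The order ATRA, both agents, untreated, IL-13 was the same at each time. In a culture, a change in the mix of cells and a change in RNA per cell cannot be told apart.

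The fitted log2 difference of Myc between ATRA and untreated cells was -2.95 ± 0.19 (SE, n = 2 arrays per treatment), a 7.71-fold lower level. It was -3.02 at 12 h and -2.88 at 24 h, and it ranked 18 from the lowest of the 15454 genes. With IL-13 the Myc signal was above that of untreated cells by a log2 difference of 1.31 ± 0.19 (2.47-fold), with 1.32 at 12 h and 1.29 at 24 h. With IL-13 present, ATRA was accompanied by a log2 difference of -1.83 ± 0.19 (3.55-fold lower), and with ATRA present, IL-13 was accompanied by 2.43 ± 0.19 (5.37-fold higher). The 2 differences with ATRA therefore ran the same way with and without IL-13, and their contrast was 1.12 ± 0.26 log2, with 1.45 at 12 h and 0.79 at 24 h. On probe A_52_P108346 the contrast was 0.99. On the dim probe A_52_P278549 it was 0.14, with 1.59 at 12 h and -1.31 at 24 h. The comparisons share arrays, so these values are not independent of each other. The ATRA arrays were dim, with mean Myc signals over all 10 spots of 52.0 and 29.9 beside 415 and 234 in untreated cells. The mean of 234, at 24 h, includes 1 spot with an outlier flag that the fit left out. With normexp background correction the differences were -1.84 for ATRA against untreated cells and 1.47 for both agents against ATRA. For both agents against IL-13 it gave -1.52, so the 2 differences with ATRA lay closer together there.

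The probes agreed on the order of the treatments where they had signal. Probe A_52_P108346 correlated with A_51_P102096 at Pearson r = 0.999 over the 8 arrays, and gave log2 differences of -2.77 for ATRA against untreated cells, 1.39 for IL-13 against untreated cells, -1.78 for both agents against IL-13 and 2.39 for both agents against ATRA. Probe A_52_P278549 was dim, with 5 of 8 arrays well above background, and read 5.52 and 4.11 in untreated cells, 5.61 and 5.43 with IL-13, 2.86 and 2.84 with ATRA, and 4.55 and 2.85 with both agents. Its ATRA arrays were not well above background, which gives an at least 3.19-fold lower signal than in untreated cells. For IL-13 against untreated cells this dim probe showed 0.10 at 12 h and 1.32 at 24 h, and its groups overlapped. Such bounds set each ATRA array to the lowest signal that was well above background on it. The coefficient of variation over the 10 spots of A_51_P102096 ranged from 2.21% to 20.1% within an array. The 20.1%, on the 24 h untreated array, includes 1 spot with an outlier flag that the fit left out. The next highest was 19.7%, on the 12 h ATRA array.

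Myc was also lower at 24 h than at 12 h under each of the 4 treatments, with log2 differences of -0.78 in untreated cells, -0.64 with ATRA, -0.81 with IL-13 and -1.32 with both agents. Slide and time coincide here, so this contrast cannot be told apart from a slide difference. The mean over treatments was -0.89 for Myc, -0.71 for Mnt and between -0.00 and 0.10 for the probes of the other 7 genes used in the fit.

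**Figure D1:**
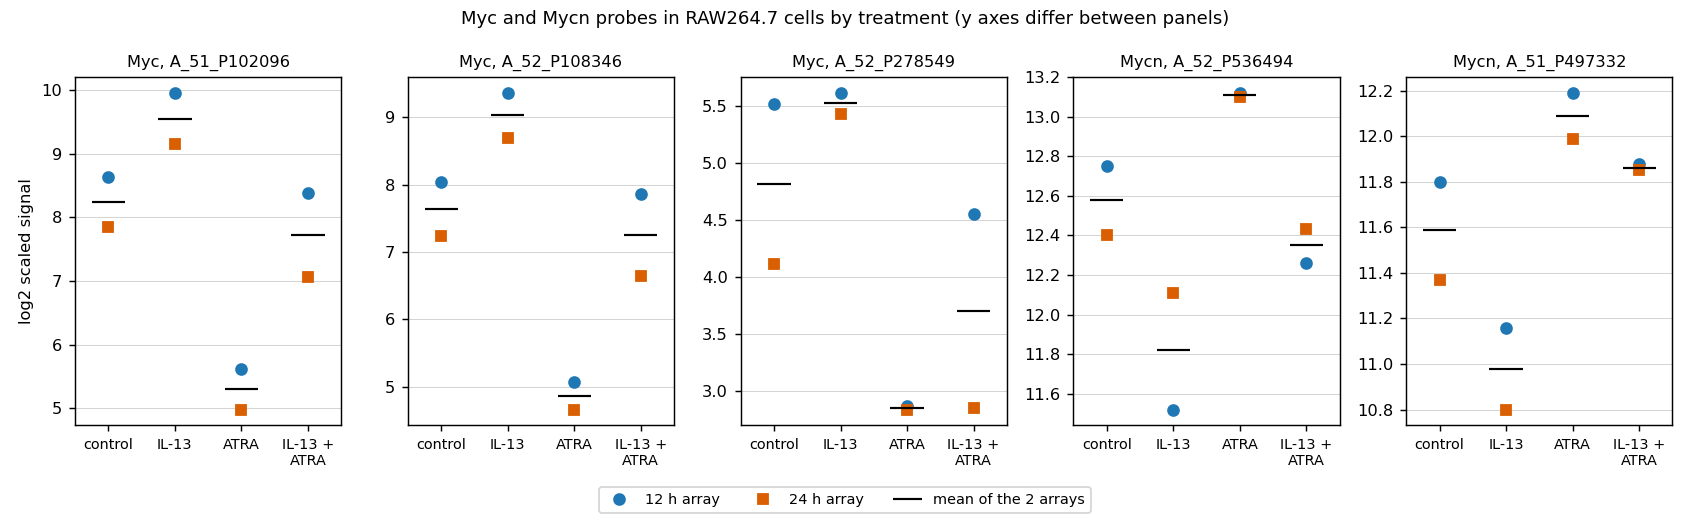
The log2 scaled signal of the 3 Myc probes and the 2 Mycn probes (y axis, a separate scale per panel) is plotted by treatment, with circles for the 12 h array, squares for the 24 h array and a line for their mean. Myc is lowest with ATRA (5.62 and 4.98 on A_51_P102096) and highest with IL-13 (9.96 and 9.15), while Mycn is highest with ATRA (13.12 and 13.10 on A_52_P536494) and lowest with IL-13 (11.52 and 12.11).

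Mycn ran the other way. On probe A_52_P536494 its log2 signal was 12.75 and 12.40 in untreated cells (12 h, then 24 h), 13.12 and 13.10 with ATRA, 11.52 and 12.11 with IL-13, and 12.26 and 12.43 with both agents. The ATRA arrays were above all others and the IL-13 arrays below all others, while untreated cells and cells with both agents overlapped. Mycn was well above background on all 8 arrays on both of its probes. The fitted log2 difference was 0.53 ± 0.23 for ATRA against untreated cells (1.45-fold higher) and -0.76 ± 0.23 for IL-13 against untreated cells (1.69-fold lower). It was 0.53 ± 0.23 for both agents against IL-13 and -0.76 ± 0.23 for both agents against ATRA. The IL-13 difference was uneven over time on this probe, -1.23 at 12 h and -0.29 at 24 h. Single arrays moved these values: with 1 array left out, the ATRA difference ranged from 0.23 (without the 24 h untreated array) to 0.83 (without the 12 h one). The IL-13 difference ranged from -1.09 (without the 24 h IL-13 array) to -0.43 (without the 12 h one), and that of both agents against IL-13 from 0.20 (without the 12 h IL-13 array) to 0.86 (without the 24 h one).

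The second Mycn probe, A_51_P497332, gave the same directions in the 4 comparisons, with 0.50 for ATRA and -0.61 for IL-13 against untreated cells, 0.88 for both agents against IL-13 and -0.23 for both agents against ATRA. The probes differed on cells with both agents against untreated cells, with -0.23 and overlapping groups on A_52_P536494 but 0.28 without overlap on A_51_P497332. On the second probe its IL-13 difference was even, -0.64 at 12 h and -0.57 at 24 h. Over the 8 arrays Mycn correlated with Myc at r = -0.873 on A_52_P536494 and -0.750 on A_51_P497332, as a description of arrays that share treatments and slides. The Mycn differences were smaller than those of Myc in each of the 4 comparisons.

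Max, the common partner, had the smallest range of the 9 genes over the 8 arrays, from 13.66 to 13.94. Its log2 signal was 13.73 and 13.77 in untreated cells, 13.91 and 13.94 with ATRA, 13.68 and 13.76 with IL-13, and 13.66 and 13.91 with both agents. The ATRA arrays lay just above those of untreated cells at 0.18 ± 0.11 log2, and IL-13 gave -0.03 ± 0.11 with overlapping values. The differences of both agents were 0.06 ± 0.11 against IL-13 and -0.14 ± 0.11 against ATRA. The 7.71-fold span of Myc between ATRA and untreated cells thus stood beside a 1.13-fold span of Max.

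The MAX-binding repressors did not share a direction. Mxd3, like Myc, was highest with IL-13 and lowest with ATRA. Unlike Myc, it was higher with both agents than in untreated cells, by 0.17 log2 (0.05 on its second probe). Its log2 signal was 7.09 and 7.10 in untreated cells, 7.74 and 7.98 with IL-13, 6.88 and 6.71 with ATRA, and 7.15 and 7.39 with both agents, with no overlap between any 2 treatments. Its fitted log2 differences were 0.76 ± 0.14 for IL-13 and -0.30 ± 0.14 for ATRA against untreated cells, -0.59 ± 0.14 for both agents against IL-13 and 0.47 ± 0.14 for both agents against ATRA. The second Mxd3 probe gave 0.52, -0.50, -0.47 and 0.55 in the same order, and no treatments overlapped there either.

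Mxd1 and Mxd4 were lower with ATRA than without it, both in untreated cells and with IL-13 present. Mxd1 read 7.67 and 7.49 in untreated cells, 7.62 and 7.71 with IL-13, 7.10 and 7.19 with ATRA, and 6.97 and 7.16 with both agents. The 4 arrays with ATRA lay below the 4 arrays without it. The log2 differences were -0.43 ± 0.13 for ATRA against untreated cells and -0.60 ± 0.13 for both agents against IL-13, and those for IL-13 were 0.08 ± 0.13 and -0.08 ± 0.13, with overlap. The dimmer Mxd1 probe A_51_P388607, above background on 6 of 8 arrays, had -0.77 for ATRA against untreated cells but -0.01 with overlap for both agents against IL-13, and -0.61 for IL-13 against untreated cells.

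Mxd4 read 8.40 and 8.19 in untreated cells, 7.96 and 8.40 with IL-13, 8.04 and 7.79 with ATRA, and 7.52 and 7.52 with both agents. Cells with both agents were the lowest, below every other array. The log2 differences were -0.38 ± 0.19 for ATRA against untreated cells and -0.66 ± 0.19 for both agents against IL-13. Probe A_51_P148865 gave -0.37 and -0.85 for the same comparisons. For IL-13 against untreated cells the probes differed in sign, -0.12 ± 0.19 with overlap against 0.20 without it. The third Mxd4 probe was well above background on 0 arrays and gives no level. Mxi1, also called MXD2, stayed within a log2 range of 9.50 to 9.96 over all 8 arrays, and its fitted differences lay between -0.23 ± 0.14 and -0.05 ± 0.14.

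Mnt, a repressor that is present in most cells, was lowest with IL-13. Its log2 signal was 12.77 and 11.88 in untreated cells, 11.96 and 10.57 with IL-13, 12.60 and 12.37 with ATRA, and 12.22 and 11.90 with both agents. The IL-13 array was the lowest at each time, but the 12 h IL-13 array (11.96) lay above the 24 h untreated array (11.88), so the groups overlapped. The fitted log2 difference was -1.06 ± 0.30 for IL-13 against untreated cells (2.09-fold lower), with -0.81 at 12 h and -1.32 at 24 h. Cells given both agents were at 0.80 ± 0.30 relative to IL-13, with 0.26 at 12 h and 1.34 at 24 h, and at -0.43 ± 0.30 relative to ATRA. With 1 array left out, the IL-13 difference ranged from -1.52 (without the 12 h IL-13 array) to -0.60 (without the 24 h one), and that of both agents against IL-13 from 0.34 (without the 24 h IL-13 array) to 1.26 (without the 12 h one). Mnt had the largest SE of the 9 genes, and its ATRA difference of 0.17 ± 0.30 had opposite signs at the 2 times.

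Mlx was slightly higher with IL-13. It read 11.08 and 11.36 in untreated cells, 11.73 and 11.61 with IL-13, 11.20 and 11.27 with ATRA, and 11.49 and 11.47 with both agents. The 4 arrays with IL-13 lay above the 4 arrays without it. The log2 differences were 0.45 ± 0.13 for IL-13 against untreated cells and 0.24 ± 0.13 for both agents against ATRA, while ATRA against untreated cells gave 0.02 ± 0.13 with overlap. The other Mlx probe had a usable signal on 2 of 8 arrays and did not pass the filter.

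**Figure D2:**
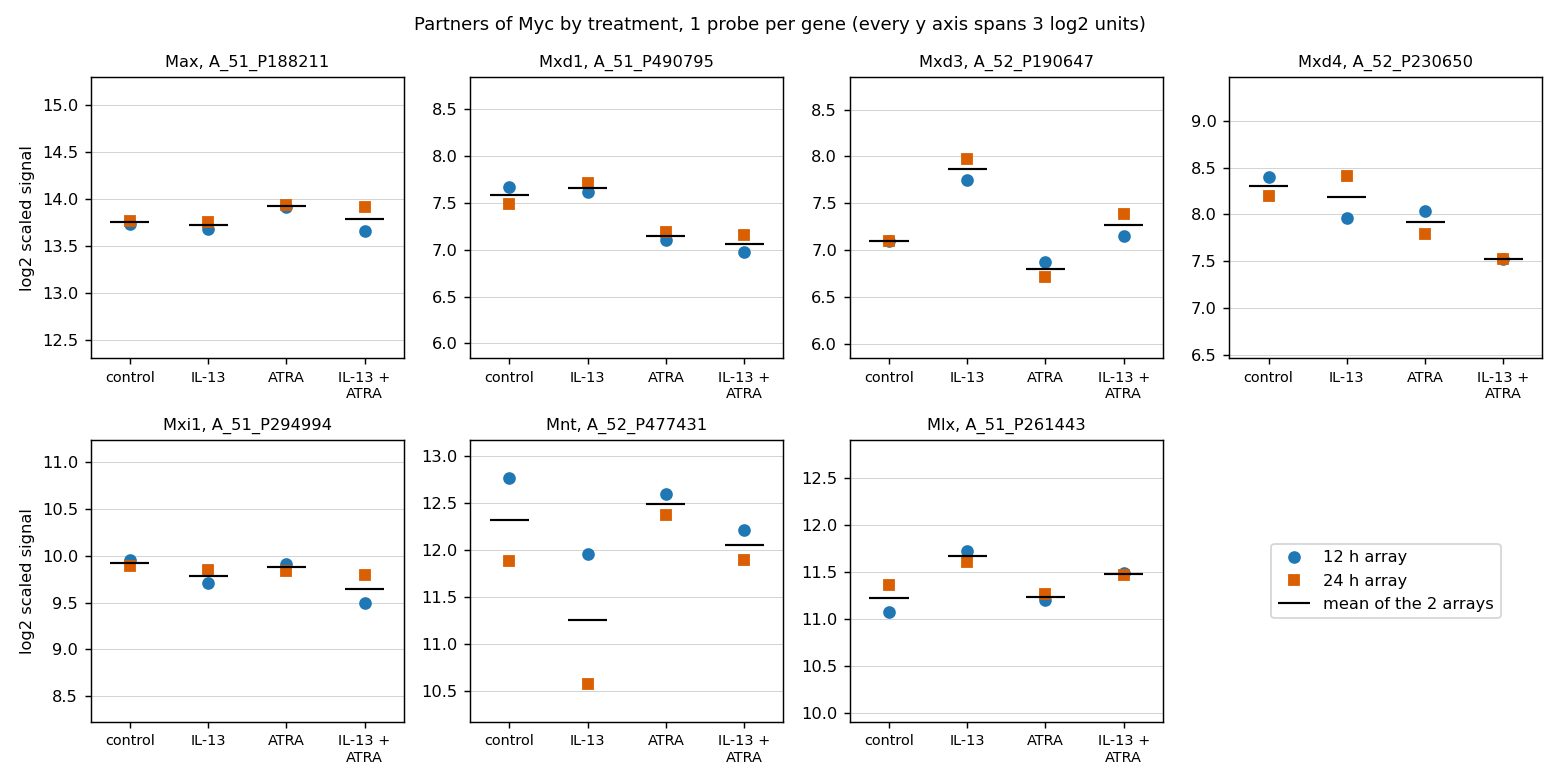
The log2 scaled signal of the other 7 genes (y axis, each spanning 3 log2 units around its own level) is plotted by treatment, with circles for 12 h, squares for 24 h and a line for the mean of the 2 arrays. Max stays between 13.66 and 13.94, Mxd3 is highest with IL-13 (7.74 and 7.98), Mxd1 is lower on the 4 arrays with ATRA than on the 4 without, Mxd4 is lowest with both agents (7.52 and 7.52), and Mnt is lowest with IL-13 (11.96 and 10.57).

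In the fit across all 15454 genes, limma with Benjamini-Hochberg adjustment at 0.05 called 0 of the 9 genes for IL-13 against untreated cells, where 0.679% of all genes were called higher and 0.595% lower. For ATRA against untreated cells it called Myc lower, 1 of 9 genes, beside 0.958% of all genes called lower and 0.906% higher. For both agents against IL-13 it called Myc lower, beside 1.48% lower and 1.16% higher over all genes. For both agents against ATRA it called Myc higher, beside 0.265% higher and 0.0971% lower. The contrast between the 2 ATRA differences called 0 of 9, beside 0.0194% of all genes in either direction. These counts repeat the values that chose the genes, so nothing is read from them. Without a filter on dim probes or without a term for time 0 of the 9 genes were called in each comparison, with only the compared arrays in the fit only the ATRA call of Myc was kept, and with the mean of all probes the call for both agents against ATRA was lost. Myc was called higher for IL-13 against untreated cells with quantile normalization, normexp background, the stricter filter, or trend and robust variance, and Mxd3 was called higher there with the last of these. Leaving out each array in turn, Myc was still called in 4 of 8 fits for ATRA against untreated cells, in 4 of 8 for both agents against IL-13 and in 3 of 8 for both agents against ATRA, with the same sign in 8 of 8 each time. The first call was lost without any 1 of the untreated or ATRA arrays. The second was lost without either untreated array, the 24 h IL-13 array or the 24 h array of both agents, and the third without either untreated array, either ATRA array or the 12 h array of both agents.

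**Figure D3:**
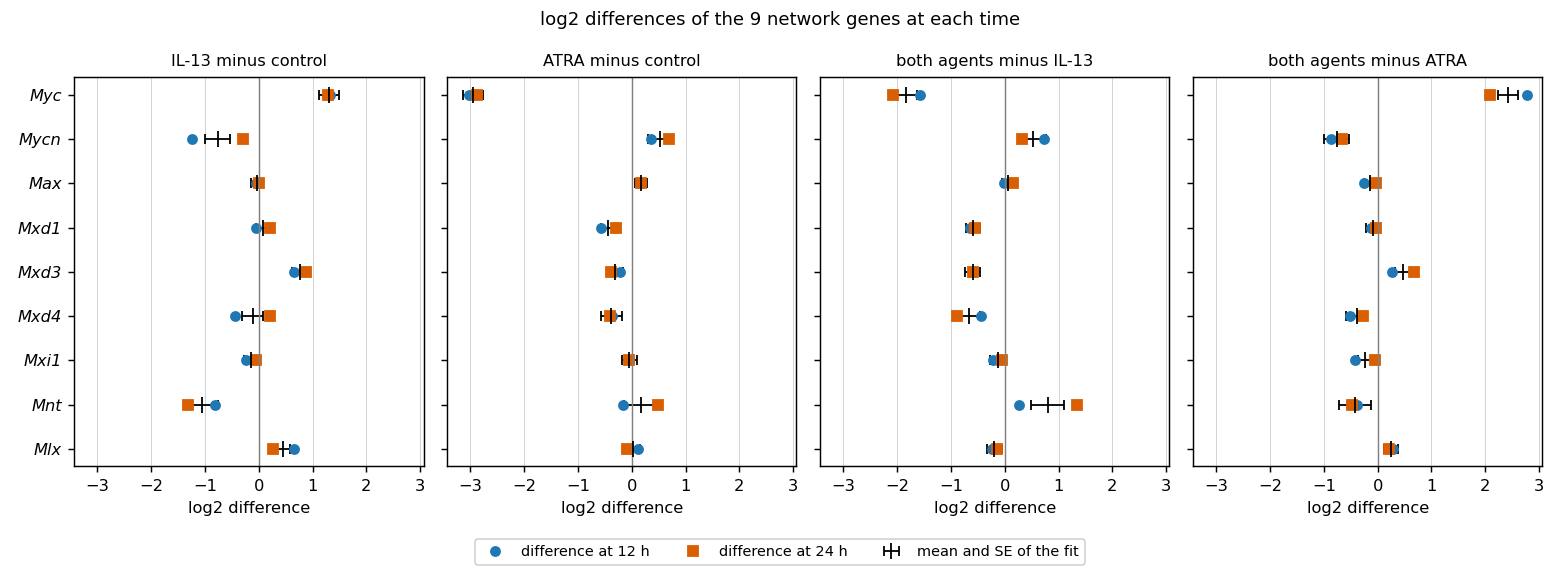
The log2 difference of each of the 9 genes (x axis) is plotted for the 4 comparisons, with circles for the difference at 12 h, squares for that at 24 h, and a bar with caps for the fitted mean and its SE. Myc lies farthest from 0 in all 4 panels (1.31, -2.95, -1.83 and 2.43), Mycn lies on the opposite side of 0 from Myc in each panel, and Max stays within 0.18 of 0 in the fitted values.

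Over the 8 arrays the gene closest to Myc in pattern was Dusp4, a MAP kinase phosphatase, at r = 0.984 among 15432 genes. Its log2 signal was 10.6 and 10.5 in untreated cells and 9.76 and 9.62 with ATRA. Next were Ocstamp, a membrane protein of osteoclast fusion (r = 0.975), a transcript model with no gene symbol (r = 0.975), Glrx, glutaredoxin (r = 0.970), and Akip1 (r = 0.969). Ocstamp had differences of the same order of size as Myc, -3.82 log2 for ATRA and 1.07 for IL-13 against untreated cells, while Akip1 moved by only -0.15 and 0.06. The genes at the other end were Shcbp1l (r = -0.980), Trf, transferrin (r = -0.975), Irf1, an interferon response factor (r = -0.971), Echdc3 (r = -0.970) and Slc7a7, an amino acid transporter (r = -0.964). Among the network genes, r with Myc was 0.793 for Mxd3, 0.645 for Mxd1, 0.593 for Mlx, 0.322 for Mxd4, -0.299 for Mxi1, -0.433 for Mnt and -0.885 for Max. The points share treatments and slides, and the values are descriptions of likeness only.

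Of the other genes of the network, Mlxipl, which encodes the glucose-sensing partner of MLX also called ChREBP, rose with ATRA. Its log2 signal was 3.10 and 3.25 in untreated cells, 8.77 and 8.83 with ATRA, 3.02 and 1.81 with IL-13, and 9.37 and 8.82 with both agents. All 4 arrays with ATRA were above all 4 without it. These values are from the brighter of the 2 Mlxipl probes that passed the filter. The log2 difference for ATRA against untreated cells was 5.63 ± 0.35 (49.4-fold, limma adjusted p = 0.00883). Both untreated signals lay just above the lowest signal that was well above background on their arrays, so the size of this rise is uncertain. For both agents against IL-13, where the probe was not well above background on either IL-13 array, the signal was at least 62.1-fold higher (limma adjusted p = 0.00539). The first of these calls was lost without the 24 h untreated array or the 24 h ATRA array, and the second without the 24 h array of both agents. Mlxipl was 1 of 5 tested genes of this list, with 1 called higher and 0 lower in each of those comparisons and 0 called for IL-13. Mga, another MAX-binding protein, gave -0.46 ± 0.14 for IL-13 and -0.04 ± 0.14 for ATRA against untreated cells, neither called. Mycl had no probe that passed the filter.

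Genes that MYC or its partners are known to bind or regulate were followed beside Myc in 10 lists, with 160 genes in all, of which 154 were tested. They were drawn from general knowledge with earlier results of these data known. For ATRA against untreated cells limma called 3 list genes higher and 2 lower (1.95% and 1.30% of 154), beside 0.906% and 0.958% of all genes. For both agents against IL-13 it called 3 higher and 3 lower (1.95% each), beside 1.16% and 1.48%. For IL-13 against untreated cells it called 1 higher and 1 lower (0.649% each), beside 0.679% and 0.595%, and for both agents against ATRA 1 higher and 0 lower, beside 0.265% and 0.0971%. The shares lie near those over all genes, with counts of at most 3, and are no result about the lists. The medians over the list genes were 0.14, 0.12, 0.08 and 0.05 log2 in the order of these comparisons, beside -0.02, -0.01, -0.00 and 0.00 over all genes. Without the filter on dim probes 0 list genes were called in each comparison, and with only the compared arrays in the fit 3, 2, 0 and 0. Leaving out each array in turn gave 0 to 4, 0 to 7, 0 to 2 and 0 to 1 called list genes. The lows came without the 24 h untreated array for ATRA, without the 24 h array of both agents for the second comparison, without either untreated array for IL-13, and without any untreated array, ATRA array or array of both agents for the last.

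The ribosome biogenesis genes, among the best known MYC targets, had a median slightly above 0 in all 4 comparisons, whichever way Myc differed. Of 38 genes such as Ncl (nucleolin), Npm1, Fbl and Nop56, 38 were tested and 0 were called in any of the 4 comparisons. Over all genes 0.0971% to 1.48% were called per direction, so 0 calls lie near the background. Their median log2 difference for ATRA against untreated cells was 0.22, with 36 of 38 above 0, while Myc stood at -2.95. For both agents against IL-13 the median was 0.19 with 37 of 38 above 0, and Myc stood at -1.83. The medians were 0.14 for IL-13 against untreated cells (28 of 38 above 0) and 0.14 for both agents against ATRA (31 of 38 above 0), the comparisons where Myc was higher. The ATRA differences in this list ran from -0.07 for Pes1 to 0.51 for Nolc1. Ncl read 15.37 and 15.43 in untreated cells and 15.74 and 15.78 with ATRA, a log2 difference of 0.36 ± 0.18 that was not called. Over all genes the medians were -0.02 for ATRA and -0.00 for IL-13 against untreated cells. For both agents they were -0.01 against IL-13 and 0.00 against ATRA. Genes of a shared pathway vary together, so these counts are not independent measurements. A link between this list and Myc was not tested.

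With under 1% of all genes called in each direction for ATRA or IL-13 against untreated cells, lists of this length are close to the background at 0 calls, and nothing particular to them is read from it. Among nucleotide and polyamine enzymes 25 of 25 were tested and 0 called, with a median of 0.17 for ATRA and 0.21 for IL-13 against untreated cells. Odc1, the rate-limiting enzyme of polyamine synthesis, gave 0.35 ± 0.18 for ATRA and 0.39 ± 0.18 for IL-13. Cad, which starts pyrimidine synthesis, gave 0.53 ± 0.57 and -1.32 ± 0.57, the latter with -0.65 at 12 h and -2.00 at 24 h. Among glycolysis and nutrient uptake genes 13 of 13 were tested and 0 called, with medians of 0.10 for ATRA and -0.05 for IL-13, and Ldha, lactate dehydrogenase A, gave -0.00 ± 0.21 and -0.04 ± 0.21. Translation factors had 0 of 10 called and medians of 0.13 and 0.20. MYC cofactors and turnover proteins had 0 of 23 called and medians of 0.12 and 0.04.

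Among 20 cell cycle entry genes, Id2, a dominant-negative helix-loop-helix protein, was the only call, and it was lower with ATRA. It read 13.17 and 13.21 in untreated cells and 12.48 and 12.54 with ATRA, a log2 difference of -0.68 ± 0.10 (limma adjusted p = 0.0486). With both agents against IL-13 it was -0.75 ± 0.10 (adjusted p = 0.0347). Both calls lay near the threshold and were lost in 8 of 8 fits with 1 array left out, with the sign kept in all of them. Cdk4 gave 0.30 ± 0.12 for ATRA and 0.38 ± 0.12 for IL-13, and Ccnd1 (cyclin D1) gave 0.26 ± 0.12 and 0.03 ± 0.12, none of them called. Ccnd2 (cyclin D2) was not well above background in untreated cells and was at least 1.88-fold higher with ATRA, without passing the test (limma adjusted p = 0.0848).

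Of 12 listed genes that MYC is known to repress, 9 were tested. Limma called 0 of the 9 higher in any of the 4 comparisons, beside 0.265% to 1.16% of all genes. For a list of 9 genes, 0 calls lie near that background. It called 1 lower for ATRA and 1 for IL-13, beside 0.958% and 0.595% of all genes. For both agents against IL-13 it called 2 lower, beside 1.48%. With counts this small, nothing particular to the list is read from them. With ATRA, where Myc was lowest, 2 of the 9 lay above 0 and 7 below. The 2 were Ddit3, a stress-response transcription factor, at 0.43 ± 0.27 (0.52 at 12 h and 0.35 at 24 h, not called) and Cebpa, a myeloid transcription factor, at 0.01; both are named after their values were seen. Ndrg1, a stress-response gene, fell with ATRA, with IL-13, and with both agents against IL-13. It read 11.10 and 11.33 in untreated cells, 9.81 and 10.23 with ATRA, 10.30 and 10.59 with IL-13, and 9.30 and 9.58 with both agents, with no overlap between untreated cells and any treatment. The log2 differences were -1.19 ± 0.11 for ATRA (limma adjusted p = 0.0210) and -0.77 ± 0.11 for IL-13 (adjusted p = 0.0490) against untreated cells, and -1.003 ± 0.11 for both agents against IL-13 (adjusted p = 0.0236). These calls were kept in 2, 0 and 1 of 8 fits with 1 array left out, with the same sign in 8 of 8. Btg1, an antiproliferative gene, was called lower for both agents against IL-13 (-0.85 ± 0.12, adjusted p = 0.0380), which held in 0 of 8 such fits. Cdkn1a (p21) gave -0.31 ± 0.19 for ATRA and -0.27 ± 0.19 for IL-13 against untreated cells, not called. The median of the list was -0.33 for ATRA and -0.23 for IL-13.

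Targets of MLX with its Mondo partners had 0 of 5 called. Txnip, the thioredoxin-binding protein that is their best known target, gave 0.38 ± 0.10 for ATRA against untreated cells and 0.31 ± 0.10 for both agents against IL-13 (limma adjusted p = 0.158 and 0.187), beside the rise of Mlxipl. Arrdc4, named after its values were seen, went the other way, with -0.70 ± 0.23 and -0.89 ± 0.23. Of the 5 genes, 4 lay above 0 and 1 below in the first comparison, and 3 above and 2 below in the second. Of 6 tested macrophage genes reported to depend on MYC, Mrc1, the mannose receptor, rose with IL-13 by 5.19 ± 0.37 log2 (36.5-fold, limma adjusted p = 0.0174). Its signal was 4.03 and 3.47 in untreated cells and 8.38 and 9.49 with IL-13, and against ATRA it was 3.67 ± 0.37 higher with both agents (adjusted p = 0.0404). Mmp9, a matrix protease, was not well above background in untreated cells and was at least 20.7-fold higher with ATRA (adjusted p = 0.00574), where Myc was lowest. With both agents against IL-13 it rose by 5.09 ± 0.33 (adjusted p = 0.00766), but only 1 of the 2 IL-13 arrays was well above background, so the size of this rise is uncertain. Vegfa rose by 0.97 ± 0.11 with ATRA (adjusted p = 0.0286) and by 1.12 ± 0.11 with both agents against IL-13 (adjusted p = 0.0172). With 1 array left out, the Mrc1 calls were kept in 6 and 2 of 8 fits, the Mmp9 calls in 7 and 7, and the Vegfa calls in 2 and 3. The Mrc1 call for IL-13 was lost without either untreated array, and the Mmp9 calls without the 24 h untreated array and without the 24 h array of both agents.

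**Figure D4:**
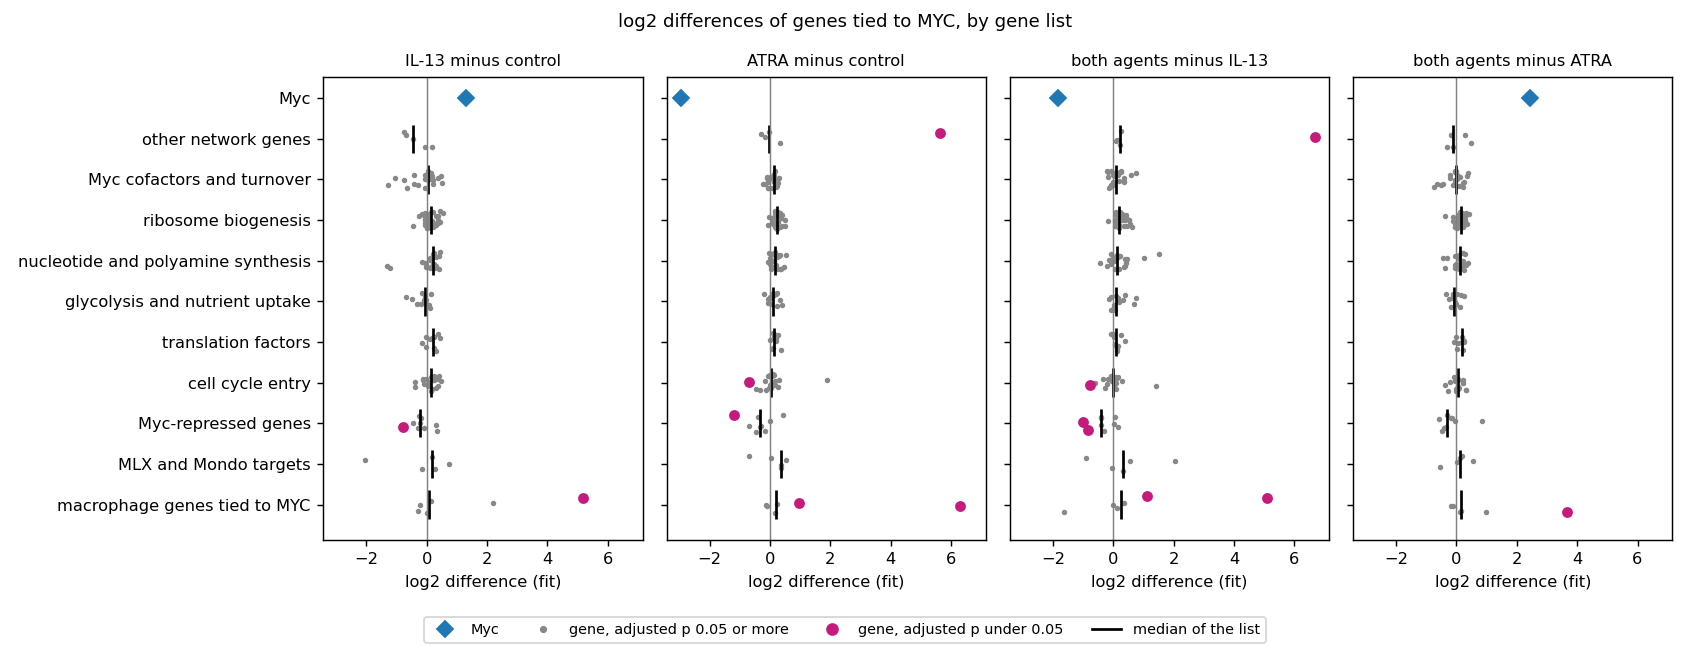
The fitted log2 difference (x axis) of each tested gene is plotted by list for the 4 comparisons, with Myc as a diamond on top, genes with a limma adjusted p under 0.05 as large points, and the median of each list as a vertical line. With ATRA, Myc lies at -2.95 while the ribosome biogenesis genes lie between -0.07 and 0.51, and the points farthest right are Mlxipl (5.63) and Mmp9 (6.31).

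The network binds E-boxes, and 4 of the 8 network genes with a promoter in the RefSeq table (250 bases before to 50 after the start, build GRCm38.p6) hold the palindrome CACGTG there. Myc is not in that table. The motif is in 7.15% of all promoters there and in those of 8.09% of all genes. Each window below is 30 bases on the strand of the gene, with the motif in capitals.
Max, chr12:76962234-76962263, minus strand, motif from -3: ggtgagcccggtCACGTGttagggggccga
Mxd4, chr5:34187912-34187941, minus strand, motif from -219: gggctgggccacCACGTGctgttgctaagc
Mnt, chr11:74830789-74830818, plus strand, motif from -123: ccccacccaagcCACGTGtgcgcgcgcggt
Mlx, chr11:101087238-101087267, plus strand, motif from -40: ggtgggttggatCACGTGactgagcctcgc
The 4 genes with the motif did not move together, with ATRA differences of 0.18 for Max, -0.38 for Mxd4, 0.17 for Mnt and 0.02 for Mlx while Myc stood at -2.95. The half-site of retinoic acid receptors, AGGTCA, searched on both strands, was in the promoters of 0 of the 8 genes, beside 18.1% of all genes. A match or its absence in these windows is a description of the letters only.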

How the data were processed

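Arrays of Agilent design 014868 were read by the authors with Feature Extraction 10.7.1.1, per the file headers, which subtracted background within each array. The processed signal, an intensity deposited without normalization between arrays, was the starting value. The authors also deposited a table on a log2 scale with identical ranges in all 8 columns and method not given in the sources used here; it served as an alternative. Control spots were removed, spots with an outlier flag were left out, and repeated spots were averaged (43379 spots, 41174 probes). Each array was scaled to its 75th percentile and log2 was taken. A probe had to be well above background at both times in some treatment, which 24040 probes were, and each gene was represented by its probe with the highest mean signal. limma 3.58.1 in R 4.3.3 was fitted with treatment and time as terms over all 8 arrays (residual df 3, prior df 2.41), with Benjamini-Hochberg adjustment over 15454 genes; a gene was called at an adjusted p under 0.05. A fitted difference is then the mean of the 12 h and 24 h differences. The precision is limited by 2 arrays per treatment.

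The members and the gene lists were chosen with earlier results of these data known. The genes named were all members with every probe, the called genes of each list with the largest differences (up to 4 per direction), a fixed set of 12 genes, and the 5 highest and 5 lowest correlations with Myc. Outside this rule, Ddit3, Cebpa and Arrdc4 were named after their values were seen. Pes1 and Nolc1 were named as the ends of the ribosome biogenesis list, and Npm1, Fbl and Nop56 as examples of it. Alternatives changed the normalization, background, filter, probe rule, time term, variance model and arrays in the fit. Leaving out an array of a treatment outside a comparison cannot change the fitted difference, so a sign kept in such a fit is no support. Protein sequences are not shown. Probe positions are those of the arrays (mm9, per the file headers), and promoters come from RefSeq (GRCm38.p6).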

Additional observations from a re-analysis of the deposited data

How the results depend on the processing

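The sign of the 4 Myc differences was kept in 56 of 56 values under the alternatives, and 47 of them moved by less than 1 SD between arrays. Part of these values could not move. A fit without an array of another treatment, or with only the compared arrays, returns the reported difference by design. For the other 8 genes below, a fit without an array of another treatment likewise returns the reported difference. With normexp background, whose offset compresses dim signals, Myc gave -1.84 for ATRA against untreated cells, -1.52 for both agents against IL-13 and 1.47 for both agents against ATRA. With the mean of its probes, the dim one included, Myc gave -2.56 for ATRA against untreated cells and 1.89 for both agents against ATRA. With 1 array left out, the Myc differences ranged from 1.24 to 1.38 for IL-13 against untreated cells, from -3.11 to -2.78 for ATRA, from -2.12 to -1.54 for both agents against IL-13 and from 2.14 to 2.72 for both agents against ATRA. Of 416 such values for the other 8 genes, 371 moved by less than 1 SD and 16 changed sign, all of them for differences within 0.17 log2 of 0 in Max, Mxd1, Mxd4, Mxi1, Mnt and Mlx. With 1 array left out the ATRA differences against untreated cells ranged from -0.59 to -0.28 for Mxd1, from -0.46 to -0.14 for Mxd3 and from -0.54 to -0.22 for Mxd4. The ribosome biogenesis median for ATRA stayed between 0.19 and 0.22 with every array in, with 0 of 38 genes called. With 1 array left out this median ranged from 0.17 (without the 12 h untreated array) to 0.28 (without the 12 h ATRA array). For IL-13 against untreated cells this median moved more. It was 0.14 in the reported fit (28 of 38 above 0) and 0.06 with quantile normalization or the authors' values (24 of 38 above 0). Without the 12 h IL-13 array it was 0.04, and without the 24 h one 0.21.

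The counts of called genes moved more, and the cause was not tested. With all arrays and the comparisons in the order IL-13, ATRA, both agents against IL-13, both agents against ATRA, the counts were 197, 288, 408 and 56. Without a filter on dim probes they were 1, 0, 7 and 4, and with trend and robust variance 607, 631, 819 and 167. With the arrays of the compared groups only they were 9 for IL-13, 13 for both agents against IL-13 and 2 for both agents against ATRA. With probes above background on all 8 arrays they were 433 for ATRA and 88 for both agents against ATRA. With 1 array left out they ranged from 2 to 357, 1 to 172, 15 to 517 and 3 to 45. The contrast of the ATRA differences had 3 calls, 0 without the filter, with the strict filter or with trend and robust variance, 1 without a term for time, and 0 to 8 with 1 array left out.

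Called list genes were 2, 5, 6 and 1 in the same order. Without the filter they were 0 in each, and with the arrays of the compared groups only 0, 3, 2 and 0. For IL-13 they were 1 with the mean of all probes or no term for time and 4 with trend and robust variance. For both agents against ATRA they were 0 with normexp background. For the contrast 0 list genes were called in any fit, where 564 of all genes had an unadjusted p under 0.05 in limma. The arrays of one time, which share a slide, were blocked by the term for time in the reported fit, and the fit without a term for time is the unblocked alternative, with 165, 275, 339 and 70 called genes.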
